A study of Mus musculus with 24 samples.

Results

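The hearts described here came from Tm180 mice, which carry an α-tropomyosin transgene and are used as a model of familial hypertrophic cardiomyopathy, an inherited thickening of the heart muscle. The members were the 3 arrays titled Tm180 at 12 months and the 3 titled Tm180 at 4 months, chosen by title, so 6 of the 24 arrays of the series. The question was which left ventricular transcripts differ between young adult and middle-aged hearts of this genotype. Each array measured RNA from left ventricular tissue that had been frozen after collection, and the titles call the 3 arrays of an age biological replicates. The other genotypes, each with 3 arrays at 4 months and 3 at 12 months, were nontransgenic mice (NTG), mice lacking phospholamban (PLB KO) and mice with both changes (Tm180/PLB KO). NTG and Tm180/PLB KO hearts were compared with Tm180 hearts by tests, and PLB KO hearts entered the descriptions of shared direction and of genes called for age elsewhere. The series had no transgene control with normal tropomyosin, and the labels state no strain, sex or litter. From the line's published description, the transgene is driven by the α-myosin heavy chain promoter, which is active in cardiomyocytes. The sample descriptions carry a code whose number goes with the group, so whatever it stands for cannot be told apart from age.

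Tropomyosin lies along the actin filament and, with troponin, lets calcium decide when myosin may bind and the muscle contract. Mutations that make the filament respond to less calcium slow relaxation. A ventricle under such strain typically reactivates a fetal programme, with more β-myosin heavy chain and natriuretic peptide RNA, and lays down collagen and other matrix around its fibres. Phospholamban is a brake on the pump that returns calcium to its store after each beat, so that removing it speeds relaxation.

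No gene passed the test for age in Tm180 hearts. Values are log2 expression, so a difference of 1 is a doubling, and a gene was called at a limma adjusted p under 0.05 over 15918 genes. The count was 0 called (0% of the genes tested), the smallest limma adjusted p was 0.9999, and 277 genes (1.74%) had an unadjusted p under 0.05. Of these, 131 were higher (0.823%) and 146 lower (0.917%) at 12 months. With no age difference in any gene, a share of 0.05 would be reached on average, so 1.74% is not an excess. A fit to the 6 Tm180 arrays alone also called 0 genes, with 148 at an unadjusted p under 0.05.

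A missed threshold does not show that the ages were alike, and the intervals give the size of difference these arrays could still hold. The median standard error (SE) of a gene's difference was 0.159, and its 95% interval reached a median of 0.331 to either side. For 15590 genes (97.9%) the whole interval lay within 1 on the log2 scale either way, and for 12909 (81.1%) it lay within 1.5-fold either way. An observed difference of at least 1 was found for 14 genes (0.088%), and one of at least 1.5-fold for 73 (0.459%). The median difference over all genes was -0.0066, with 7594 higher and 8324 lower means at 12 months. The number of arrays limits this precision.

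The ages did not separate as wholes. Arrays of the same age correlated at 0.9647 to 0.9807 over all genes tested, and arrays of different ages at 0.9659 to 0.9868. The first principal component of the 6 arrays held 39.2% of their variance. It placed 4-month replicate 1 (20.1) beside 12-month replicate 2 (22.8), and 4-month replicate 3 (-26.3) beside 12-month replicate 3 (-18). The remaining array of each age lay between them, at 0.9 and 0.5.

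Some differences between arrays within an age were large and were not named in the labels. Xist, the RNA that coats the inactive X chromosome, was high (9.79 to 10.24) on 4-month replicates 2 and 3 and 12-month replicate 1, and low (4.14 to 4.79) on the remaining arrays. Uty and Eif2s3y, Y-linked genes, showed the opposite pattern, so 1 of 3 arrays at 4 months and 2 of 3 at 12 months carried Y-linked signal. The 26 immediate-early genes, switched on fast by a stimulus, had mean levels of 8.0, 7.02 and 6.93 on the 4-month replicates and 6.80, 8.79 and 6.96 on the 12-month replicates. Array 1 at 4 months and array 2 at 12 months therefore stood out, with Egr1 at 8.21 and 9.27 against 5.73 to 6.54 on the others.

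The 10 ventricular cardiomyocyte markers, among them Myl2, Irx4 and Tnni3, were measured at a mean level of 11.33 to 11.54 on every array. Their median age difference was 0.01. Phospholamban RNA was present on all 6 arrays, which is the state the Tm180 label gives. Pln read 13.70, 13.72 and 13.62 at 4 months and 13.66, 13.59 and 13.88 at 12 months, a difference of 0.03 (95% interval -0.64 to 0.71). The spread behind this interval is shared by all 8 groups, whose SDs for Pln ran from 0.0499 in Tm180 hearts at 4 months to 1.02 in PLB KO hearts at 4 months. Tpm1, whose probe set reads the α-tropomyosin gene and may also detect the transgene's RNA, read 13.11, 13.20 and 13.18 and then 13.22, 13.13 and 13.15, with a difference of 0.00 ± 0.0889 (SE).

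The transcripts nearest to the threshold on the higher side were led by Cdh22, a cadherin of cell junctions, and Prkcq, protein kinase C theta, a signalling kinase abundant in T cells and striated muscle. The 10 described in this paragraph and the next had the smallest unadjusted p among genes whose 3 arrays at 12 months all lay above the 3 at 4 months, a separation seen in 242 genes (1.52%). Because they were picked for their p and their separation, neither supports them. Cdh22 read 6.08, 6.05 and 6.02 at 4 months and 6.31, 7.27 and 7.18 at 12 months (difference 0.87 ± 0.184, 1.82-fold, unadjusted limma p 0.000123). Its 4-month arrays were nearly equal, and 12-month replicate 1 exceeded them by far less than the other two. Prkcq read 6.10, 6.32 and 6.73 and then 7.78, 6.85 and 7.46 (0.98 ± 0.217, 1.97-fold). Its lowest array at 12 months was close to its highest at 4 months. Prkcq passed limma's test with the Y-linked level (adjusted p 0.0406) or the immediate-early level (0.000662) as a covariate, and Cdh22 did without 12-month replicate 1 (difference 1.17, adjusted p 0.00145).

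Myot encodes myotilin, a Z-disc protein that binds actin and α-actinin, and it was the gene of the sarcomere list nearest to the threshold. It read 10.06, 9.56 and 9.76 at 4 months and 10.47, 10.39 and 10.76 at 12 months (0.74 ± 0.166). All 3 arrays at 12 months lay above the 4-month range without one of them standing out. Efemp1, the matrix protein fibulin-3, read 6.28, 5.89 and 6.54 and then 7.12, 7.31 and 8.30 (1.35 ± 0.315, 2.54-fold, 95% interval 1.61 to 4.01). Cyp2b10, a cytochrome P450 of xenobiotic metabolism, read 5.71, 5.26 and 6.01 and then 6.15, 7.59 and 8.09 (1.62 ± 0.448). Here too 12-month replicate 1 lay next to the 4-month arrays. The other five were Mgst1, a membrane glutathione transferase (0.81), Gda, guanine deaminase (0.60), Thsd7a, a thrombospondin-domain membrane protein (0.59), the secreted factor Ndnf (0.53) and the adhesion receptor Adgrd1 (0.47).

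On the lower side, of all genes, 331 (2.08%) had the 3 arrays at 12 months below the 3 at 4 months. The 10 with the smallest unadjusted p among them differed by -0.33 to -0.65. Slc38a1, a sodium-coupled transporter of glutamine, had the largest, with 6.75, 6.89 and 7.32 at 4 months and 6.21, 6.38 and 6.40 at 12 months (-0.65 ± 0.207). Kcnj15, an inwardly rectifying potassium channel, had the smallest p, with 5.55, 5.56 and 5.61 and then 5.28, 5.0 and 5.25 (-0.40 ± 0.111, unadjusted limma p 0.00183). These levels sit low on the arrays' scale, not far above the filter at 4.83. The rest were Tmem119 (-0.47), Shisa4 (-0.46), Nos2, the inducible nitric oxide synthase (-0.42), Podxl2 (-0.40) and Chml, a Rab escort protein (-0.39). Hexim2, an inhibitor of transcription elongation, differed by -0.37, Cfap126 by -0.36 and Chst8 by -0.33. Cfap126 read 4.75, 4.86 and 4.97 and then 4.41, 4.46 and 4.65, so its 12-month arrays lay below the filter. It was tested only because 4-month replicates 2 and 3 and PLB KO 12-month replicate 3 (4.86) exceeded the filter. Its place among these genes therefore has no support.

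**Figure D1:**
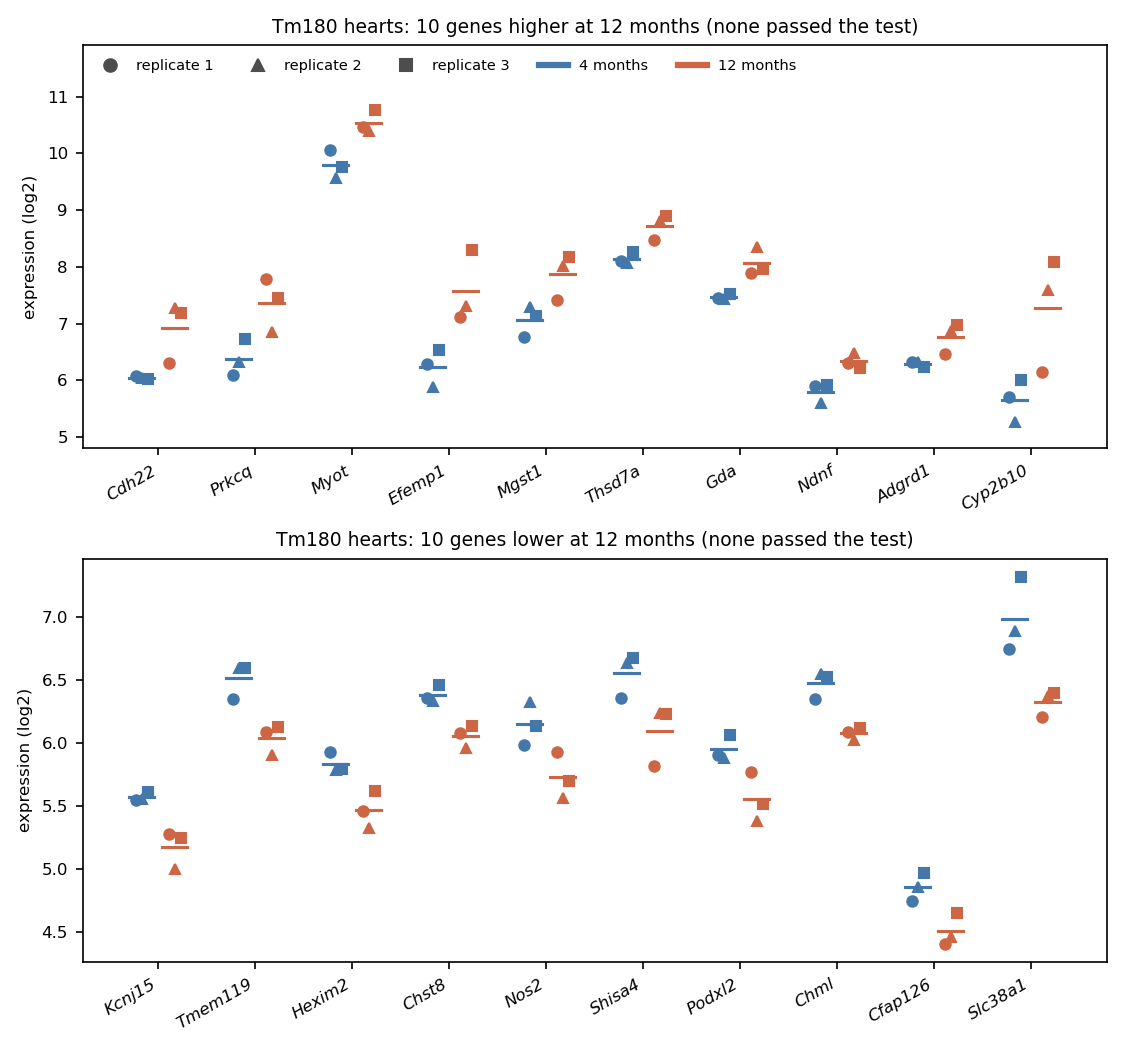
Expression (log2, vertical axis) in Tm180 hearts of the 10 genes higher and the 10 lower at 12 months with the smallest unadjusted p among genes with separated ages. Points are single arrays, shapes are replicates and bars are means of 3 arrays. The ages do not overlap for any of the 20 genes, which is how they were chosen, and 12-month replicate 1 is the lowest of its age for Cdh22, Efemp1, Mgst1, Thsd7a, Gda, Adgrd1 and Cyp2b10.

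The fetal and hypertrophy programme was already high at 4 months in Tm180 hearts and differed little by 12 months. Its 25 members had a median difference of 0.06, 18 were higher and 7 lower, and 2 had an unadjusted p under 0.05, both higher, where 0.823% of all genes did. Without 12-month replicate 2 the median was -0.02, with 11 higher and 14 lower. The 2 genes were Myh7, the slow β-myosin heavy chain, and Nppb, the B-type natriuretic peptide. Myh7 read 12.54, 11.77 and 12.00 at 4 months and 12.85, 12.42 and 12.59 at 12 months, a difference of 0.52 (95% interval 0.09 to 0.95). The Myh7 ages overlapped, since the highest array at 4 months lay above the lowest at 12. In NTG hearts the mean went from 10.25 to 11.42, so the 12-month NTG hearts stayed below the 4-month Tm180 hearts. The Myh7 age difference in Tm180 minus that in NTG was -0.65 (95% interval -1.26 to -0.04), which did not pass limma's adjusted test.

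Nppb read 11.53, 11.03 and 11.21 and then 12.02, 11.88 and 11.49 (0.54, 95% interval 0.00 to 1.08), again with overlapping ages. Nppa, the atrial natriuretic peptide, read 13.19, 12.99 and 12.60 and then 12.83, 13.43 and 12.98 (0.15, -0.43 to 0.74). Acta1, the skeletal actin of the fetal heart, differed by 0.27 (-0.43 to 0.98). For Nppb, Nppa and Acta1 the 6 arrays interleave by age.

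**Figure D2:**
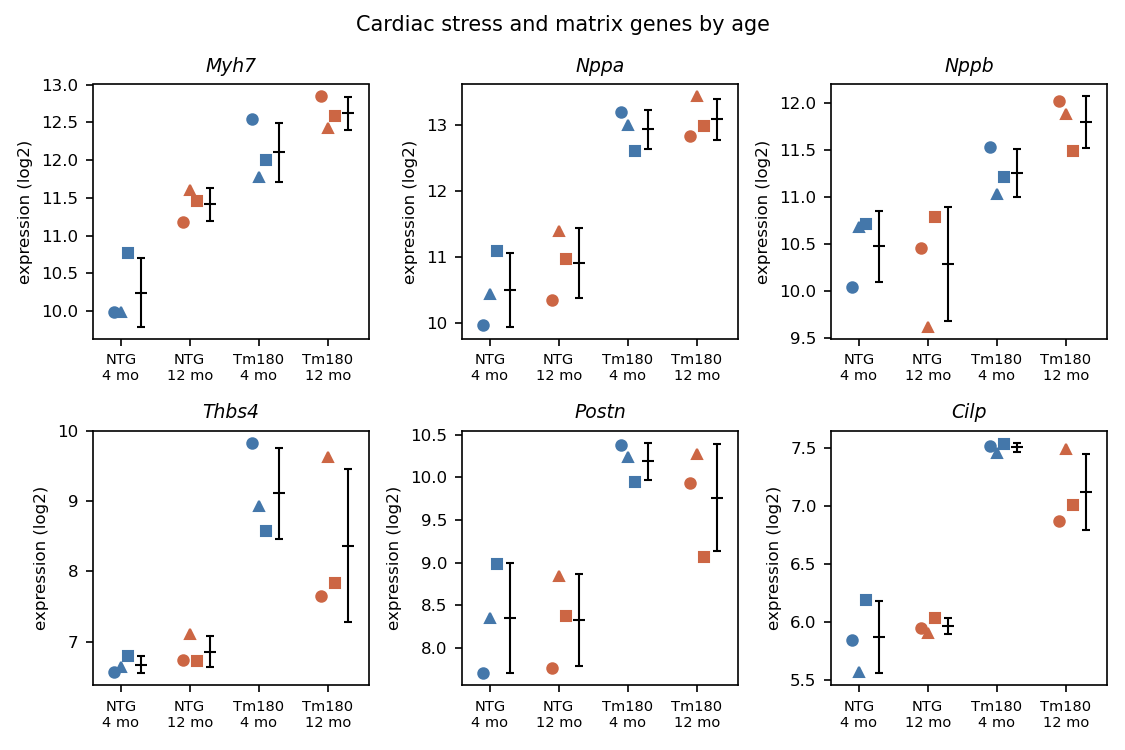
Expression (log2, vertical axis) of Myh7, Nppa, Nppb, Thbs4, Postn and Cilp on each NTG and Tm180 array at 4 and 12 months (mo); circles, triangles and squares are replicates 1, 2 and 3, and black bars show mean and SD of 3 arrays. All 6 genes sit higher in Tm180 than in NTG hearts at both ages, and the Tm180 arrays of the 2 ages overlap for each gene.

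The lists of contractile, calcium and electrical genes had medians close to 0. Of 30 thick filament, thin filament and Z-disc genes, 1 had an unadjusted p under 0.05 (Myot), and the median difference was 0.02. Myh6, the adult α-myosin heavy chain, differed by -0.08 (95% interval -0.25 to 0.10) and Tnnt2, cardiac troponin T, by 0.04 (-0.15 to 0.22). Of 27 calcium-handling genes, 0 had an unadjusted p under 0.05 in limma, and the median was 0.03. Atp2a2, the calcium pump that phospholamban restrains, read 13.37, 13.29 and 13.30 at 4 months and 13.39, 13.32 and 13.36 at 12 months (0.04, -0.12 to 0.20). Ryr2, the cardiac calcium release channel, differed by -0.02 (-0.27 to 0.24). For both genes, a difference of 1.5-fold lies outside the interval.

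Among 23 ion channel genes the median was -0.05, and Kcnd2, a subunit of the transient outward potassium current, had an unadjusted p under 0.05. It read 7.44, 7.94 and 8.03 and then 7.47, 7.12 and 7.41 (-0.47, 95% interval -0.80 to -0.14), with 4-month replicate 1 inside the 12-month range.

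Among matrix genes, all 19 collagens tested had a lower mean, with a median difference of -0.17 and a range from -0.54 (Col14a1) to -0.01 (Col4a1), while 8324 of 15918 genes were lower. Only Col15a1, a basement membrane collagen, had an unadjusted p under 0.05 (8.88, 9.45 and 9.42, then 9.01, 8.86 and 8.34, difference -0.51). Col1a1, the main fibrillar collagen, read 9.77, 10.55 and 10.52 and then 9.53, 10.12 and 10.04 (-0.38, 95% interval -1.12 to 0.36), so replicate 1 was lowest at each age. The mean level of the collagen list was 7.95, 8.34 and 8.14 at 4 months and 7.91, 8.10 and 7.81 at 12 months, and the ages overlapped. Leaving out one array at a time gave list medians between -0.11 and -0.24.

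Of 34 matrix glycoproteins and proteoglycans, 2 were lower at an unadjusted p under 0.05 (median -0.07, 10 higher and 24 lower). The direction of this list was not stable, with a median of 0.03 and 19 higher under the covariate of atrial genes described in the next paragraph, and a median of 0.00 and 18 higher without 12-month replicate 1. Thbs4, thrombospondin 4, a matrix protein induced in the overloaded heart, read 9.84, 8.93 and 8.58 at 4 months and 7.65, 9.63 and 7.83 at 12 months (-0.75, 95% interval -1.48 to -0.01). Array 2 at 12 months was nearly as high as the highest 4-month array, and without it the difference was -1.38. Without 4-month replicate 1 it was -0.39. Fbn2, fibrillin 2, was separated at a low level (5.54, 5.62 and 5.48, then 5.34, 5.08 and 5.22). Postn, periostin, secreted by activated fibroblasts, read 10.38, 10.24 and 9.95 and then 9.94, 10.28 and 9.07 (-0.43, -1.06 to 0.21). Cilp, another product of activated fibroblasts, read 7.52, 7.46 and 7.54 and then 6.87, 7.49 and 7.01 (-0.38, -0.78 to 0.02).

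The 12 activated fibroblast markers had a median of -0.26, with 10 lower, and 1 lower at an unadjusted p under 0.05 (Thbs4), against 0.917% of all genes. Without 12-month replicate 2 the median was -0.42 and 6 were lower at an unadjusted p under 0.05, where 1.28% of all genes had such a p in either direction. Without 12-month replicate 3 the median was -0.11, with 1 higher and 0 lower at that level in limma, where 4.22% of all genes had such a p. The 12 markers of fibroblasts in general had a median of -0.05. In whole tissue, fewer cells of a type and less RNA per cell cannot be told apart. Atrial markers moved with the collagens: the 9 tested had a mean level of 7.20, 7.83 and 7.74 at 4 months and 7.19, 7.32 and 7.18 at 12 months, and a median difference of -0.23. Myl7, the atrial light chain, read 4.97, 7.10 and 7.0 and then 4.85, 5.81 and 5.06. Its highest arrays were 4-month replicates 2 and 3, the same that were highest for Col1a1. Both carried Xist signal, but so did 12-month replicate 1, the lowest array for Myl7 and for Col1a1. With the mean of the Y-linked genes as a covariate, the collagen median was -0.14 and 18 of 19 were lower. With the atrial genes Myl7, Myl4 and Sln as covariate, an alternative added after seeing the data, it was -0.13 and 15 of 19 were lower, and the activated fibroblast median was -0.12.

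The matrix enzymes and inhibitors (21 tested, median 0.09, but -0.17 without 12-month replicate 2 and -0.02 without 4-month replicate 1) and the ligands, receptors and targets of TGF-β, a driver of fibrosis (30 tested, median 0.04), had 0 members at an unadjusted p under 0.05 in limma. Lox, which cross-links collagen, read 5.63, 5.34 and 5.07 and then 5.02, 6.97 and 5.73 (0.56, 95% interval -0.11 to 1.23), with array 2 at 12 months alone above the rest. Ccn2, a TGF-β target, read 10.79, 10.02 and 9.79 and then 11.04, 10.77 and 10.19 (0.47, -0.06 to 1.0). Tgfb2 itself differed by 0.11 (-0.45 to 0.67).

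Energy metabolism showed little difference at the level of lists. The 43 oxidative phosphorylation genes had a median of 0.00 and a range of -0.10 to 0.18, and the 33 genes of fatty acid uptake and oxidation a median of 0.03. Each had 0 members at an unadjusted p under 0.05 in limma. Pdk4, the kinase that diverts the heart from glucose towards fat, read 11.11, 9.15 and 9.93 and then 10.84, 10.52 and 10.96 (0.71, 95% interval -0.16 to 1.58), and the ages overlapped. Among 31 genes of glucose, ketone and amino acid use the median was 0.07, with Glul, glutamine synthetase (0.38), and Pfkp, the platelet phosphofructokinase (0.42), higher at an unadjusted p under 0.05. Glul read 10.97, 10.48 and 10.47 and then 11.05, 11.01 and 11.01, which separates the ages narrowly. The 17 clock genes had a median of 0.01 and 0 members at an unadjusted p under 0.05.

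**Figure D3:**
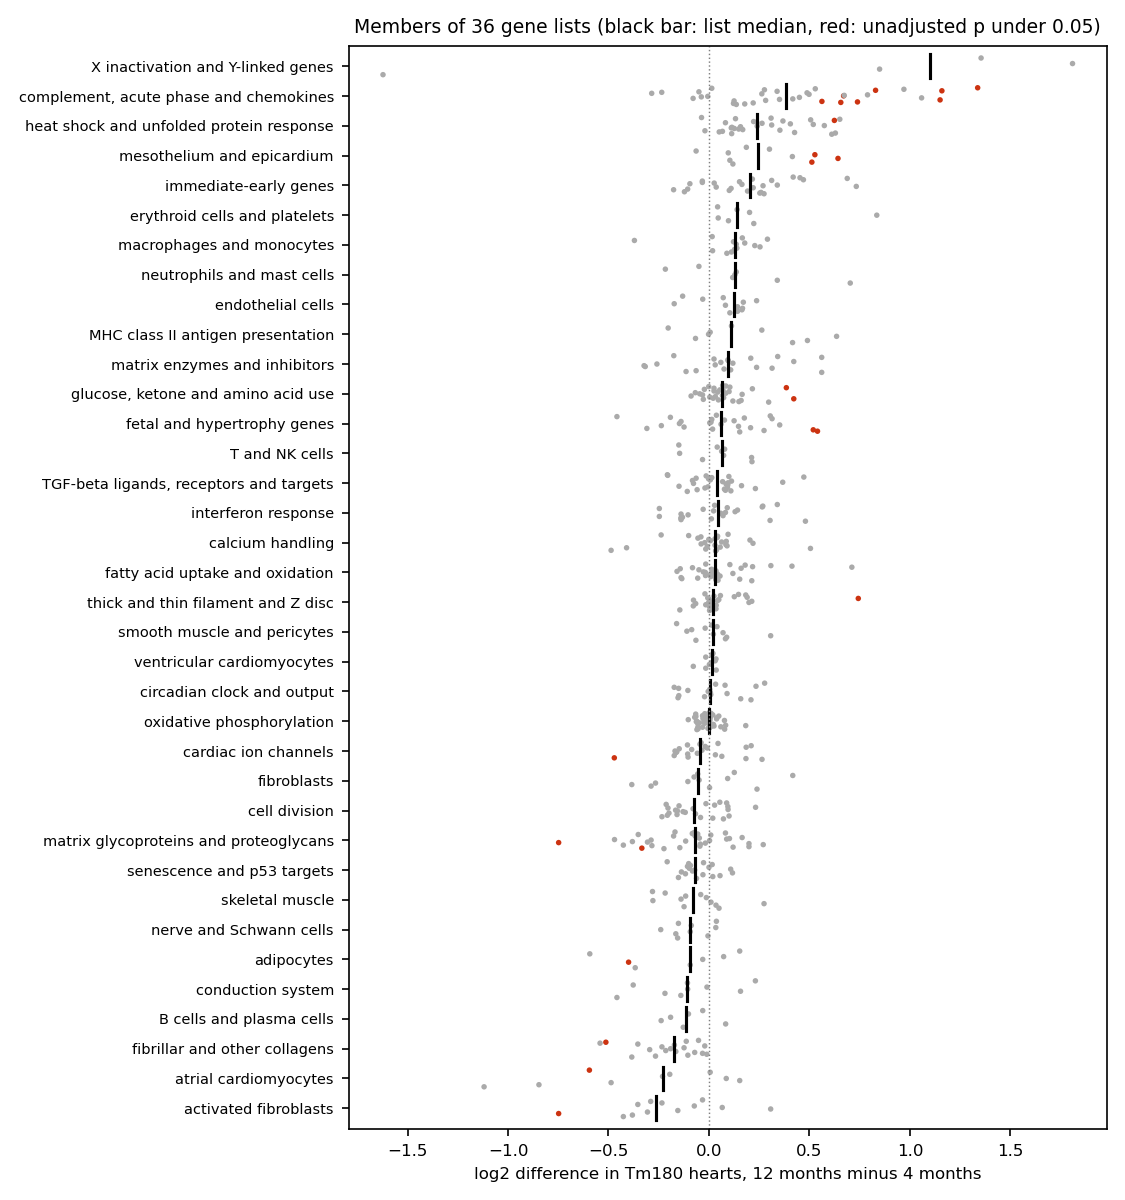
Log2 difference between 12 and 4 months in Tm180 hearts (horizontal axis) for every tested member of the 36 gene lists, ordered by list median (black bar); red points have an unadjusted p under 0.05. Red points are most numerous in the list of complement, acute phase and chemokine genes, with 8 of 34, and most list medians lie within 0.2 of 0.

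The list with the most members at an unadjusted p under 0.05 held complement, acute phase and chemokine genes, which mark innate immune and stress responses. Of 34 tested, 8 were higher at an unadjusted p under 0.05 and 0 lower, where 0.823% and 0.917% of all genes were, and the median difference was 0.38 with 28 higher. The values were carried by some of the hearts. The list's mean level was 6.71, 6.65 and 6.38 at 4 months and 6.34, 7.74 and 6.94 at 12 months, so 12-month replicate 1 was the lowest of all 6 arrays and replicate 2 the highest. Without replicate 2 the median was 0.00, with 17 members higher, 17 lower and 1 at an unadjusted p under 0.05.

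C1s1, the C1s protease that starts the classical complement cascade, was the one member whose ages did not overlap. It read 6.85, 6.93 and 6.99 at 4 months and 7.39, 7.58 and 7.75 at 12 months (0.66 ± 0.202, unadjusted limma p 0.004). C4b, the next component of that cascade, read 7.29, 7.42 and 7.33 and then 7.10, 8.56 and 8.60 (0.74 ± 0.295). Lcn2, the iron-binding acute phase protein lipocalin 2, read 6.08, 6.0 and 5.54 and then 5.05, 7.93 and 8.09 (1.15 ± 0.507). Cxcl13, a chemokine that attracts B cells, read 4.36, 5.36 and 5.32 and then 4.41, 6.99 and 7.12 (1.16 ± 0.468). In C4b, Lcn2 and Cxcl13 the first 12-month array sat within or below the 4-month range while the other two were far above it. Serpina3n, an acute phase protease inhibitor, followed the same split with 9.49, 9.74 and 8.74 and then 8.17, 11.63 and 11.34.

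The remaining members with an unadjusted p under 0.05 were the cytokine Il33 (1.34), the chemokines Cxcl14 (0.83) and Ccl6 (0.67), and Cfb, complement factor B (0.56). Leaving out 12-month replicate 1 gave 13 members at an unadjusted p under 0.05 (2.1% of all genes) and took Lcn2 (adjusted p 0.00542 in limma) and Cxcl13 (0.00683) past the threshold. Replicates 2 and 3 at 12 months and replicate 1 at 4 months carried Y-linked signal, and within each age these arrays had the highest mean levels of the list. With the Y-linked covariate the list median was 0.22 and 6 members had an unadjusted p under 0.05 (1.84% of all genes).

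Immune cell markers beside this list gave smaller differences. Macrophage and monocyte markers were higher for 13 of 14 (median 0.13, mean level 7.53 to 8.02 at 4 months and 7.65 to 8.10 at 12 months). This direction rested on single arrays: 6 were higher without 4-month replicate 1 (median -0.01) and 8 without 12-month replicate 2 (0.01). Neutrophil and mast cell markers had a median of 0.13 over 7, with S100a8 at 5.56, 4.64 and 4.05 and then 4.73, 6.78 and 4.86, high on array 2. The 9 antigen presentation genes of MHC class II had a median of 0.11, the 9 T and NK cell markers 0.06, the 6 B and plasma cell markers -0.12 and the 22 interferon response genes 0.04. None of these lists had a member at an unadjusted p under 0.05 in limma. The 7 erythroid and platelet markers were all higher (median 0.14).

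Heat shock and unfolded protein response genes, which help proteins fold in the cytosol and the endoplasmic reticulum, were higher for 28 of 30 (median 0.24), but 1 array held the difference. Their mean level was 9.29, 8.97 and 9.06 at 4 months and 9.16, 9.99 and 9.02 at 12 months. Hspa5, the chaperone BiP, read 11.39, 10.74 and 10.86 and then 11.40, 12.32 and 10.99. Sdf2l1, a partner of BiP, was the one member at an unadjusted p under 0.05 (6.85, 6.96 and 6.86, then 7.04, 8.36 and 7.14, difference 0.62). Without 12-month replicate 2 the list median was 0.01, with 15 higher and 15 lower. That array also had the highest immediate-early level (8.79), and the immediate-early list had a median of 0.20 with it and -0.43 without it. The part that tissue handling or any stress of that heart had in these values was not tested.

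**Figure D4:**
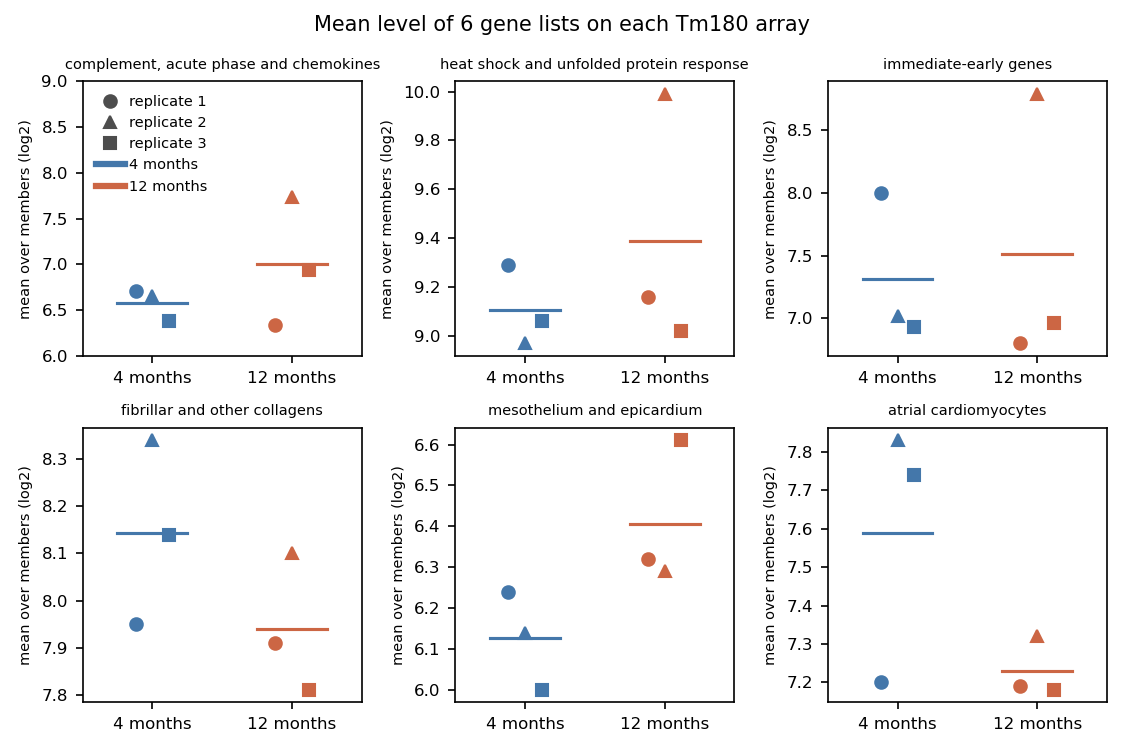
Mean log2 level over the members of 6 gene lists (vertical axis, a separate scale for each list) on the 3 Tm180 arrays of each age; shapes are replicates and horizontal bars are means of 3 arrays. Replicate 2 at 12 months (triangle) is the highest array for complement (7.74), heat shock (9.99) and immediate-early genes (8.79), and the collagen and atrial lists are highest on 4-month replicates 2 and 3.

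Mesothelial and epicardial markers, which come from the surface layer of the heart, were higher for 9 of 10 (median 0.24), and 3 had an unadjusted p under 0.05, where 0.823% of all genes were higher at that level. Upk1b, a uroplakin of mesothelium, read 6.15, 5.44 and 5.39 and then 6.27, 5.9 and 6.74 (0.64), and Krt19, an epithelial keratin, read 5.95, 5.44 and 5.81 and then 6.05, 5.81 and 6.93 (0.53). Array 3 at 12 months was the highest for both, and without it the list median was 0.16 with 0 members at an unadjusted p under 0.05 in limma; without 4-month replicate 2 it was 0.30, also with 0. Centring each array on its median left the splits of the collagen, complement, heat shock and mesothelial lists as they were. They stayed at 19 of 19 lower, and 28 of 34, 28 of 30 and 9 of 10 higher. The Tm180 array medians already lay between 5.797 and 5.901, so this step could move the splits little.

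The other cell type and process lists had 0 or 1 member at an unadjusted p under 0.05. Medians were 0.12 for endothelial cells, 0.02 for smooth muscle and pericytes, -0.09 for adipocytes (Retn, resistin, lower by 0.40), -0.09 for nerve and Schwann cells, -0.08 for skeletal muscle and -0.11 for the conduction system. Genes of senescence and p53 targets, and genes of cell division, each had a median of -0.07.

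Against NTG hearts, the age difference of Tm180 hearts was not told apart for any gene. The interaction called 0 genes (0%), with 144 at an unadjusted p under 0.05 and a smallest limma adjusted p of 0.8056. Its smallest p belonged to Ucp3, a mitochondrial uncoupling protein that is induced by fatty acids. In NTG hearts Ucp3 went from 6.66 to 8.58, the single gene called for age there (0.00628%). In Tm180 hearts it read 6.83, 6.35 and 7.03 and then 7.19, 6.12 and 6.64 (-0.08, 95% interval -0.66 to 0.50). The difference between these age differences was -2.0 (-2.81 to -1.18). With the immediate-early level as a covariate it was -1.92, with a limma adjusted p of 0.0448. The next genes were Lonrf1 (1.21, unadjusted p 0.00197 in limma) and Fam122b (-0.68), neither called.

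Against Tm180/PLB KO hearts the interaction also called 0 genes (0%), with 239 at an unadjusted p under 0.05. Slc16a13, a monocarboxylate transporter, was the one gene called for age in Tm180/PLB KO hearts (0.00628%), where it differed by -2.03. In Tm180 hearts it differed by 0.01 (95% interval -0.64 to 0.65), and the difference between these was 2.03 (unadjusted limma p 0.000152, not called). Gadd45b and Birc3 had differences of 2.08 and 1.62 in the same comparison. Gadd45b, a stress-induced gene of the immediate-early list, read 8.61, 7.30 and 7.01 and then 7.64, 9.22 and 7.41 in Tm180 hearts, again highest on array 2. The other side of this comparison also differed by age. The immediate-early list had a median age difference of -1.08 in Tm180/PLB KO hearts and 0.2 in Tm180 hearts.

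The 277 Tm180 genes with an unadjusted p under 0.05 had the same direction of age difference in NTG hearts for 187 (67.5%), where 53.9% of all genes did. The higher genes gave 103 of 131 and the lower genes 84 of 146. In Tm180/PLB KO hearts 199 (71.8%) had the same direction against 56.9% of all genes, with 106 of 131 higher and 93 of 146 lower genes. In PLB KO hearts 122 (44%) did, against 40.5%. There the higher genes gave 83 of 131 and the lower genes only 39 of 146, so most lower genes went the other way. The arrays of these genotypes do not overlap with the Tm180 arrays. Arrays with Y-linked signal went from 1 of 3 at 4 months to 2 of 3 at 12 months in Tm180 hearts, from 0 to 1 in Tm180/PLB KO, from 3 to 0 in PLB KO, and stayed at 1 in NTG. The part of this in the shared directions was not tested.

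A small set of age-related genes from the other genotypes was also read in Tm180 hearts. Over the 18 arrays of NTG, PLB KO and Tm180/PLB KO, limma called 15 genes between 12 and 4 months (0.0942%), 12 higher and 3 lower. PLB KO hearts alone gave 3 called genes (0.0188%). In Tm180 hearts all 12 higher genes had higher means at 12 months and 1 of the 3 lower genes a lower mean. With a Y-linked covariate 8 genes were called over the 18 arrays, and the 7 higher ones were all higher in Tm180 hearts. With the immediate-early covariate 3 were called, all higher in both sets. The mean immediate-early level went from 8.53 at 4 months to 7.56 at 12 months in PLB KO hearts. It went from 8.59 to 7.51 in Tm180/PLB KO hearts and from 7.23 to 7.22 in NTG hearts. The part of these levels in the calls was not tested.

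Prkcq showed about the same size in both sets, 0.80 over the 18 arrays and 0.98 in Tm180 hearts, and so did Thsd7a (0.47 and 0.59) and Ndnf (0.46 and 0.53). C4b differed by 0.83 and 0.74, but its Tm180 value rested on 12-month replicates 2 and 3. Replicate 1 of that age lay below every 4-month array for C4b. Cdh22 differed by 0.53 and 0.87. Prkcq, Cdh22, Ndnf, Thsd7a and Abat, which breaks down GABA, had Tm180 arrays that did not overlap between ages. They were 5 of the 12 higher genes, where 1.52% of all genes were separated in this direction. Over 21 other settings of the 18-array fit, the age call held in 21 for Prkcq and 20 for Cdh22. For Ndnf it held in 10, for Thsd7a in 4 and for Abat in 3. Myh7 differed by 1.05 over the 18 arrays and 0.52 in Tm180 hearts. Inmt, a methyltransferase, differed by 1.12 and 0.84 with a wide Tm180 interval (-0.23 to 1.91).

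Some of the 15 had Tm180 values close to 0. Arntl, the clock gene that encodes BMAL1, differed by 0.87 over the 18 arrays, while Tm180 hearts read 5.61, 6.51 and 6.73 at 4 months and 6.50, 6.17 and 6.81 at 12 months (0.21, 95% interval -0.29 to 0.71). Only 4-month replicate 1 was low. Slc41a3, a magnesium transporter, differed by 0.71 and then by 0.07 (-0.38 to 0.51), and the transcriptional repressor Bcl6b by -0.97 and then by -0.03 (-0.53 to 0.47). For Arntl, Slc41a3, Bcl6b, Myh7, Slc16a13 and Steap2 the Tm180 interval excludes the value of the other genotypes, on which the genes were selected; the difference from all 18 arrays was not tested. Vgll2 and Igfbp6 each differed by 0.30, and Steap2 by 0.07.

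**Figure D5:**
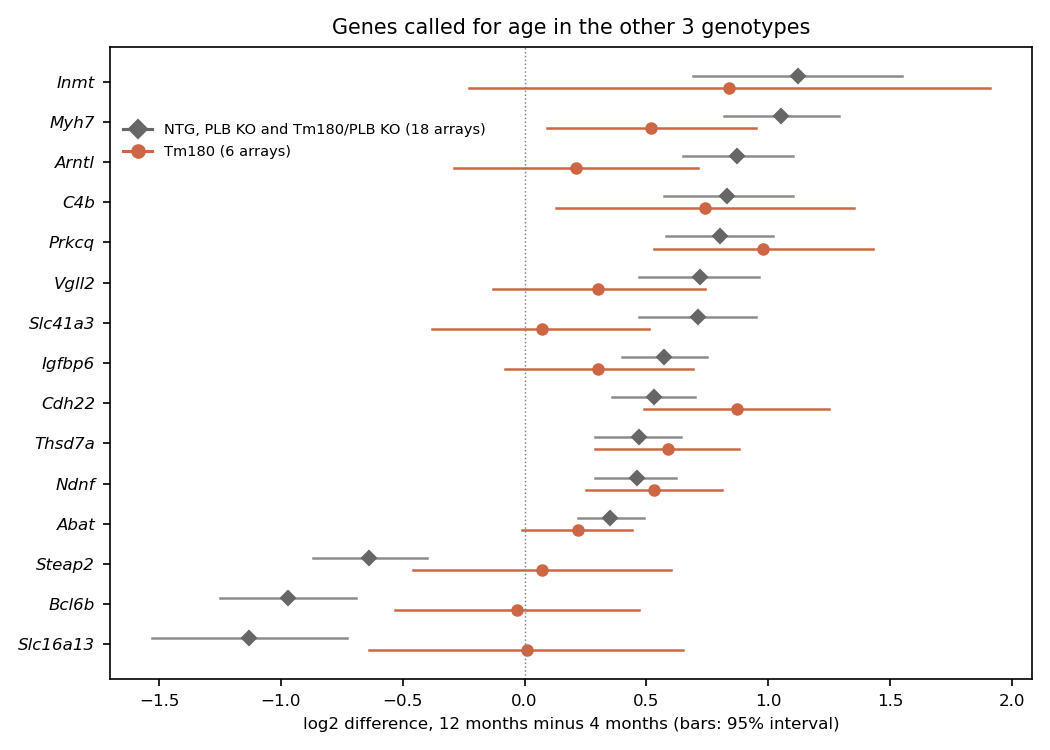
Log2 difference between 12 and 4 months (horizontal axis) for the 15 genes called for age over 18 arrays of NTG, PLB KO and Tm180/PLB KO hearts (grey diamonds) and the same genes in 6 arrays of Tm180 hearts (orange circles); bars are 95% intervals. All 12 genes with positive grey values have positive Tm180 values, while the 3 with negative grey values have Tm180 values between -0.03 and 0.07.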

How the data were processed

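Left ventricular RNA was measured on 24 Affymetrix arrays, 6 of them from Tm180 hearts. The authors deposited log2 expression values made with RMA, per the submitters' processing notes; no version, setting or build is given in the sources used here. Array medians lay between 5.777 and 5.901. Groups came from sample titles. In the platform annotation 21789 probe sets had a single symbol, 1621 had several and were not used, and 12147 had none. Symbols were updated to RefSeq (GRCm38.p6), and the brightest probe set stood for a gene. Genes above 4.83, the 25th percentile, on at least 3 arrays were kept (15918).

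The model was limma 3.58.1 (R 4.3.3) with 8 group means over 24 arrays, 16 residual degrees of freedom and Benjamini-Hochberg adjustment over all genes, tested on simulated data. Named genes were Pln, Tpm1, the 10 higher and 10 lower genes of smallest unadjusted p with separated ages, the 2 smallest-p members of each of 36 lists and 3 genes per interaction. Others, including Enpp3, Nppa, Lcn2 and the 15 age genes, were chosen after their values were seen. The arrays, lists and tests were chosen with earlier results of these data known. One Tm180/PLB KO array has conflicting age labels and was kept at 4 months.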

Additional observations from a re-analysis of the deposited data

Results flagged for a closer look

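Nos2 differed by -0.42 and Shisa4, a membrane protein of the Shisa family, by -0.46 in Tm180 hearts, where all 3 arrays at 12 months lay below those at 4 months. In Tm180/PLB KO hearts all 3 arrays at 12 months lay above those at 4 months for both genes, with differences of 0.27 and 0.23. The margins were narrow. For Nos2 the highest 4-month array read 5.99 and the lowest 12-month array 6.01, and for Shisa4 they read 5.95 and 6.02. The Nos2 value of 5.99 came from 4-month replicate 2, the array with conflicting age labels. In NTG hearts the age differences were -0.2 for Nos2 and 0.06 for Shisa4. The age difference in Tm180 minus that in Tm180/PLB KO was -0.69 ± 0.184 (SE) for Nos2 and -0.69 ± 0.203 for Shisa4. Neither passed limma's adjusted test (unadjusted p 0.00119 and 0.00277). Both genes were picked for their separation in Tm180 hearts and flagged for the opposite direction in Tm180/PLB KO hearts. The size and p of this difference therefore give them no support.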

How the results depend on the processing

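The count of genes called for age in Tm180 hearts stayed at 0 with a replicate block (759 genes at an unadjusted p under 0.05), no filter on dim genes (404), the 50th percentile as filter (168), a trended robust prior (258), array weights (715), median centring (250), the mean of probe sets (281) and the 6 arrays alone (148). A Y-linked or an immediate-early covariate each gave 1, Prkcq (adjusted p 0.0406 and 0.000662 in limma). After seeing the data, a replicate block with a Y-linked covariate (2) and an atrial covariate (0) were added. Leaving out one array gave 0 to 3: Enpp3 without 4-month replicate 1, and Cdh22, Lcn2 and Cxcl13 without 12-month replicate 1. After each gene's group mean was subtracted, same-numbered Tm180 arrays of the 2 ages correlated at 0.054, 0.023 and 0.346. The main fit did not take the numbers as pairs. That choice looked at Tm180 arrays, while the fit pools the spread of all 8 groups. In Tm180/PLB KO hearts the same-numbered arrays correlated at 0.572, 0.065 and 0.449. With the replicate block the smallest limma adjusted p for age in Tm180 hearts was 0.1234, against 0.9999 in the main fit.

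The interaction with NTG gave 1 with the immediate-early covariate and 0 to 1 without one array; that with Tm180/PLB KO gave 0 to 1. NTG alone gave 11 with array weights, 2 with the Y-linked and 3 with the immediate-early covariate, 0 for its own arrays and 0 to 2 without one. Its numbers paired (0.619, 0.496 and 0.539, also after subtracting group means), and the block left the count at 1. Tm180/PLB KO gave 2 with the replicate block, 2 with array weights, 41 for its own arrays and 0 to 2 without one. The 18-array count, examined after seeing the data, was 93 with the block (60 of 68 higher and 11 of 25 lower genes kept their direction in Tm180), 8 and 3 with the Y-linked and immediate-early covariates, and 8 to 39 without one array. It passed 1.5 times either way without NTG 12-month replicate 1 (30) or 2 (8), PLB KO 4-month replicate 2 (23) or 3 (9) or 12-month replicate 2 (39), and Tm180/PLB KO 4-month replicate 1 (8) or 2 (9) or 12-month replicate 1 (9). The causes were not tested.

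Of 1113 values of named genes under other settings, 1106 kept direction and call. Array weights turned Pln (-0.0017), Tpm1 (-0.0018) and Tnnt2 (-0.011). Without one array, values ran from -0.052 to 0.093 for Pln, -0.025 to 0.023 for Tpm1, -0.028 to 0.078 for Tnnt2, -0.023 to 0.33 for Ndufb10, -0.43 to 1.26 for Socs3 and -0.11 to 0.94 for Gadd45b.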

Other observations

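Enpp3, an ectonucleotidase that splits extracellular nucleotides and is known from basophils and mast cells, had the largest observed difference among the genes described, and it rested on 2 arrays of 4 months. It read 6.43, 11.05 and 11.18 at 4 months and 6.77, 6.35 and 7.16 at 12 months (-2.79, 95% interval -4.30 to -1.29, unadjusted limma p 0.000915). On the other 22 arrays of the series it lay between 6.08 and 7.16, so 4-month replicates 2 and 3 were alone. Without 4-month replicate 1 the difference was -4.36 and passed limma's test (adjusted p 1.52e-09). Both high arrays carried Xist signal, as did 12-month replicate 1, where Enpp3 was low.

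Penk, the precursor of the enkephalin peptides, read 7.19, 6.13 and 6.86 at 4 months and 7.03, 7.91 and 8.95 at 12 months (1.24, 0.35 to 2.14), with 1 array of each age overlapping. Ppbp, a platelet chemokine precursor, read 6.67, 6.50 and 6.17 and then 7.16, 6.92 and 7.77 (0.84) in Tm180 hearts, while the mean in NTG hearts went from 8.36 to 7.30.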
